A study of Mus musculus with 21 samples.

Results

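RNA levels in uterine tissue of 8-week-old mice were compared with those in uterine tissue of 5-week-old mice, across all 12791 genes measured. The 7 libraries of each age, 14 of the 20 libraries of the series that held values, were chosen by the age in the header of their value column. Per the labels, all mice were wild type C57BL/6J, an inbred laboratory strain. They were healthy, group-housed and of 1 supplier. To bring on the cycle, each had been primed 48 hours before dissection with pregnant mare serum gonadotropin, a hormone that makes ovarian follicles grow, at a dose of either 5 or 7.5 units. All animals of both ages were thus primed, the dose of each animal is not stated in the labels, and unprimed animals were not analysed here. RNA came from slices of part of each uterine horn. The 6 aged uteri with values, used in a single comparison at the end, were from primed mice of the same strain, 2 of them 60 to 75 weeks old and 4 of them 79 weeks old. The labels do not say which animals shared a litter or cage, so p-values measure only the spread between these samples, which may be technical.

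In female mice puberty begins and is completed over the weeks around the younger of these ages. The uterus then consists of a luminal and glandular epithelium, a stroma beneath it and 2 layers of smooth muscle, the myometrium. Estrogen from growing follicles acts through the receptor Esr1, drives epithelial cells to divide and to secrete proteins such as lactoferrin, and induces the progesterone receptor Pgr. Cycling animals therefore pass through wide swings in hormone-regulated genes.

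Replicates 1 and 2 of each age form an earlier set of libraries, told apart by the ending of their column headers, and replicates 3 to 7 a later one. Total reads over the listed genes ran from 12204573 to 14448283 in the earlier and from 19100690 to 30689439 in the later set, and each listed gene had at least 10 reads in every library. Genes with fewer reads than that in some library are thus not among the 12791. These read numbers were inferred from the common step of the values of a library, taken as 1 read, and not read from a count table. The column named 5w replicate 3 lies in a file attached to an aged sample, and the column named 8w replicate 3 in a file attached to a 5-week sample, so the counts over all genes are also given without both. Library 5w replicate 5 stood apart from its set, with a highest correlation to any library of 0.932. Epithelial, stromal and myometrial markers were present: 23 of 24 general epithelial, 20 of 20 stromal and 24 of 25 contractile genes were measured. Of markers of neighbouring tissues, 2 of 14 ovarian, 3 of 15 squamous and 5 of 14 skeletal muscle genes were listed, with the ovarian genes Cyp19a1, Fshr and Gdf9 not among them.

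No gene was called different between 8 and 5 weeks. Of 12791 genes, 0 (0%) passed at an adjusted p under 0.05 in a limma fit on log2(CPM + 1) with the set as covariate, where CPM is a gene's reads scaled to a common library total, and the lowest adjusted p was 0.999846. At an unadjusted p under 0.05 there were 173 genes (1.35%), 120 higher (0.938%) and 53 lower (0.414%) at 8 weeks. That split was 104 and 101 under TMM scaling, 103 and 88 under quantile scaling and 112 and 83 under median scaling. If p-values were uniform, 639.55 genes would lie under that value. Genes share the same 14 libraries, so neither number is a count of independent events. Without both columns found in files of another age, 0 genes were called and 279 had an unadjusted p under 0.05.

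The estimated changes were small for most genes. Below, an estimate is the log2 fold change of a gene, 8 weeks minus 5 weeks, from the limma fit, given ± its standard error (SE) or with its 95% interval. CPM ranges and medians of an age pool both sets unless a set is named, so their width includes the difference between sets. On the log2 scale the median change was 0.034, 90% of genes lay between -0.26 and 0.31, and 12 genes reached an estimate of 2-fold, 6 in each direction. The lowest estimate was that of Fabp4, a fatty acid carrier, at -2.06, and the highest that of Ovgp1, an oviduct glycoprotein, at 1.73. Only Dalrd3 had all 8-week libraries above all 5-week libraries (0.00782% of genes), and no gene had them all below.

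What the data exclude depends on the gene. The median standard error was 0.20 and the median half-width of the 95% interval 0.43, which is 1.35-fold. The interval excluded a change of 1.5-fold or more in either direction for 7342 genes (57.4%), of 2-fold for 11792 (92.2%) and of 4-fold for 12753 (99.7%), but of 1.25-fold for only 859 (6.72%). The largest fold still inside the interval had a median of 1.46, and was 1.91 or less in 90% and 3.00 or less in 99% of genes. A pair of 1-sided equivalence tests per gene, adjusted over all genes, placed 7887 genes (61.7%) within 1.5-fold, 12168 (95.1%) within 2-fold and 12773 (99.9%) within 4-fold. That left 623 genes not within 2-fold and 18 not within 4-fold by that test. These folds are on the log2(CPM + 1) scale, which understates changes of genes near 1 CPM: with a pseudocount of 0.25 the interval excluded 2-fold for 89.3% of genes.

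**Figure D1:**
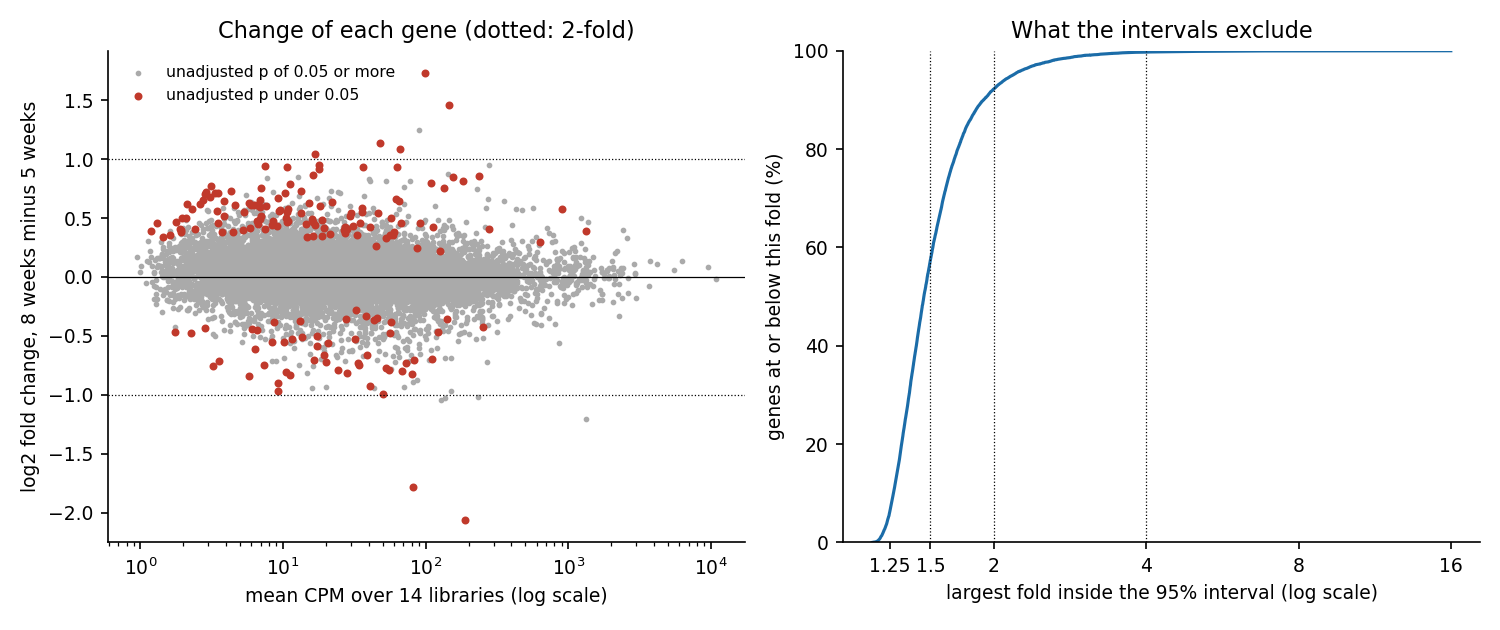
Left, estimated log2 fold change (8 weeks minus 5 weeks) of 12791 genes against their mean CPM over 14 libraries, with the 173 genes of unadjusted p under 0.05 in red and 2-fold lines dotted. Right, percent of genes whose 95% interval reaches no further than a given fold; the curve passes 57.4% at 1.5-fold and 92.2% at 2-fold.

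Intervals were wider for genes of 5 to 20 CPM than for abundant ones. Among 3330 genes with means of 5 to 20 CPM the median half-width was 0.48, and 46.8% of genes were within 1.5-fold and 93.0% within 2-fold by the equivalence test. Among 2026 genes of 100 CPM or more it was 0.38, with 70.9% and 94.4%. With a pseudocount of 0.25 the median half-width was 0.58 for genes of 2 to 5 CPM, 0.53 for those of 5 to 20 CPM and 0.38 for those of 100 CPM or more. CPM are not divided by gene length, so levels are not compared between genes. Of the 5 genes of highest mean CPM, 4 had intervals well inside 2-fold and Acta2, smooth muscle actin, did not, at -0.76 to 0.98. Eef1a1, a translation elongation factor, had 2606 to 16401 CPM (median 12715) at 5 weeks and 2742 to 16202 CPM (median 13091) at 8 weeks. Over both ages it had 2606 to 2964 CPM in the earlier set and 11949 to 16401 CPM in the later set. Its estimate was -0.01 ± 0.17, with a largest fold not excluded of 1.30. The mitochondrial genome encodes mt-Co1, of the last complex of the respiratory chain, which had an estimate of 0.08 (95% interval -0.29 to 0.46) and mt-Cytb, a subunit of complex III, of 0.06 (-0.33 to 0.45). Tmsb4x, an actin-binding peptide, had an interval of -0.43 to 0.69.

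Age took a small share of the variance between uteri. Summed over genes, the set accounted for 56.1%, age after set for 2.10%, and 41.8% was left between libraries of the same age and set. Any split of the libraries takes some share, so 2.10% does not by itself show an effect of age. Of the 14 libraries, 7 had their nearest neighbour, by correlation across genes, at the same age and 7 at the other age, while 14 of 14 had it in the same set. In the later set the median correlation across genes was 0.925 for 20 pairs of the same age and 0.933 for 25 pairs of different ages, and in the earlier set it was 0.976 for 2 and 0.965 for 4 pairs. Genes are not independent replicates, and pairs share libraries, so these are descriptions. After the mean of each set was removed, 5w replicate 3 lay beside 8w replicate 6, and the ages overlapped on both leading components.

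**Figure D2:**
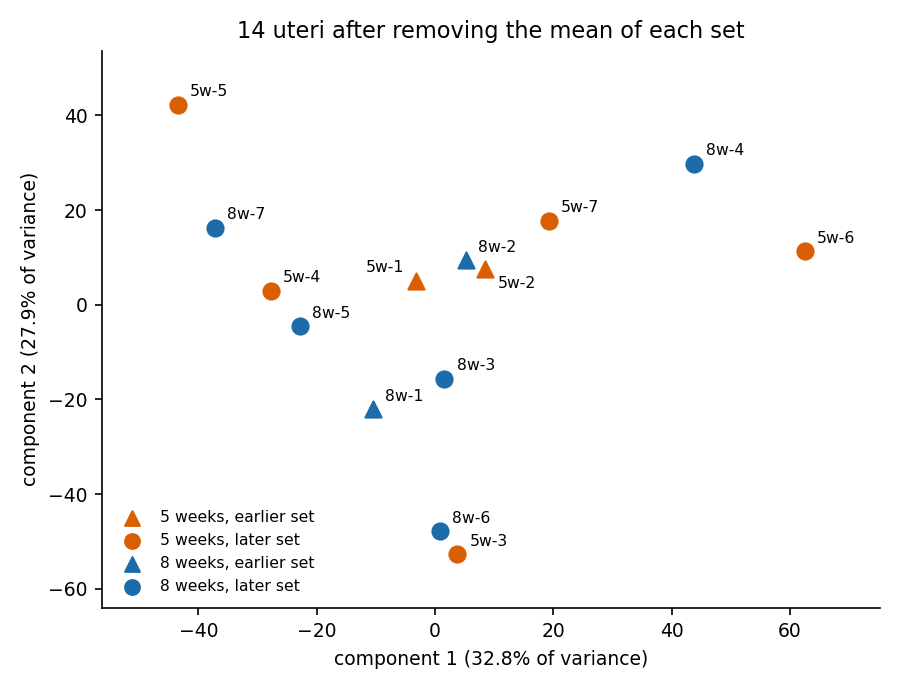
Scores of the 14 uteri on the leading 2 components of log2(CPM + 1) after the mean of each set was subtracted, with 32.8% of the variance on the horizontal and 27.9% on the vertical axis. Orange, 5 weeks; blue, 8 weeks; triangles, earlier set; circles, later set. The ages are intermixed, and 5w replicate 3 lies beside 8w replicate 6.

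Among the steroid hormone receptors no member was called, and all 9 of the 12 listed that were measured were within 2-fold, 4 of them within 1.5-fold, beside 95.1% and 61.7% of all genes. Esr1, the main estrogen receptor of the uterus (ENSMUSG00000019768; GRCm38 chromosome 10, 4611593 to 5005614, plus strand), had 140.2 to 459.6 CPM (median 208) at 5 weeks and 183 to 419 CPM (median 245) at 8 weeks. The ages overlapped fully with both sets pooled. Over both ages Esr1 had 408 to 460 CPM in the earlier set and 140 to 358 CPM in the later set. The estimate was 0.09 ± 0.19, and changes above 1.401-fold were excluded. Pgr, the progesterone receptor (chromosome 9, 8899833 to 8968611, plus strand), had 40.5 to 236 CPM (median 141) at 5 weeks and 25.4 to 169 CPM (median 157) at 8 weeks. Its estimate was -0.03 ± 0.41, with an interval of -0.91 to 0.85, and the lowest values of each age were those of 5w replicates 6 and 7 and of 8w replicate 4. The 9 measured members had estimates from -0.07 to 0.14.

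Targets of estrogen in the epithelium had the widest intervals of the 62 gene lists examined. Of 25 genes listed, 20 were measured, 0 had an unadjusted p under 0.05, and 7 (35%) were within 2-fold, beside 95.1% of all genes. The median change was 0.0033, the median half-width of the interval 1.195, and the mean log2 level of the list per library ran from 5.29 to 9.25 (median 7.83) at 5 weeks and 5.80 to 9.34 (median 7.56) at 8 weeks. The lowest list level of each age was in 5w replicate 3 (5.29) and 8w replicate 6 (5.80). Ltf, lactoferrin, a secreted iron-binding protein and a standard readout of estrogen action in the mouse uterus (chromosome 9, 111019271 to 111042767, plus strand), had 563 to 3437 CPM (median 2079.8) at 5 weeks and 1128 to 3575 CPM (median 1827) at 8 weeks. Its estimate was 0.20 ± 0.40, with -0.53 in the earlier and 0.49 in the later set. Greb1, a cofactor of the estrogen receptor, had an estimate of 0.30 (-0.81 to 1.41), and 7.68% of its exon sequence overlaps an antisense gene. Sprr2b, a cornified envelope protein, had 6.07 to 174 CPM (median 98.9) at 5 weeks and 3.71 to 165 CPM (median 33.4) at 8 weeks. All ranges overlapped, and the interval of Sprr2b, -2.47 to 0.68, reached 5.53-fold in the lower direction. Sprr2 genes are a family of close copies among which reads may be split.

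Of progesterone-responsive genes, 15 of 22 were measured, 0 were called and 0 had an unadjusted p under 0.05. Within 2-fold were 9 (60%), beside 95.1% of all genes. Alox15, a lipoxygenase, had 18.1 to 749 CPM (median 152) at 5 weeks and 78.1 to 638 CPM (median 397) at 8 weeks. Its estimate was the highest of the list, 0.95 ± 0.58, with 3.04 in the earlier and 0.12 in the later set. Wnt4, a secreted signal of the stroma, had 5.23 to 56.7 CPM (median 14.2) at 5 weeks and 4.17 to 88.6 CPM (median 17.9) at 8 weeks, with an interval of -0.88 to 1.57. Hand2, a stromal transcription factor, had an estimate of 0.04 ± 0.19, with changes above 1.37-fold excluded, though 19.6% of its exon sequence overlaps an antisense gene and the library kit named in the labels does not mark strand. Of the steroid synthesis and metabolism list, 12 of 24 were measured and 10 (83.3%) were within 2-fold. Of prostaglandin and oxytocin genes, 16 of 21 were measured and 13 (81.25%) were within 2-fold. Oxtr, the oxytocin receptor, had 5.03 to 120.3 CPM (median 26.03) at 5 weeks and 6.69 to 137 CPM (median 30.9) at 8 weeks and an interval of -0.35 to 1.53.

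**Figure D3:**
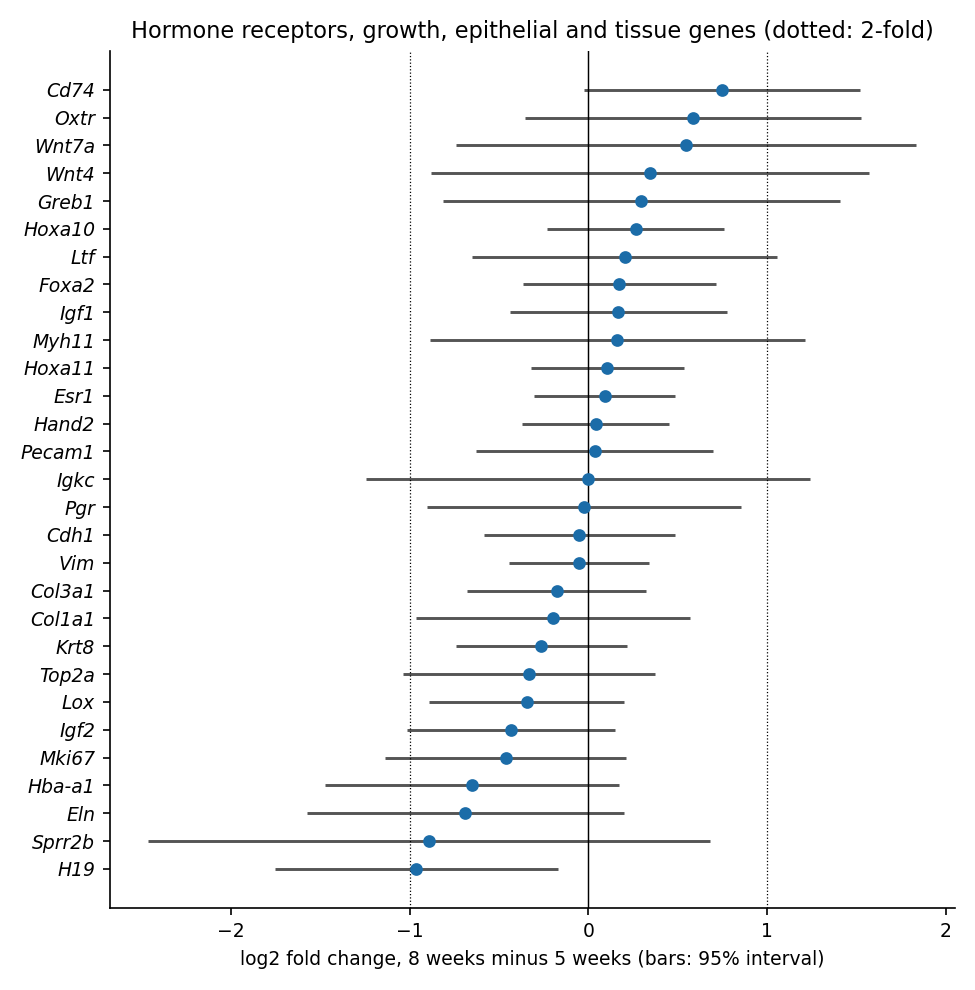
Log2 fold change (8 weeks minus 5 weeks) with its 95% interval for 29 genes of hormone response, growth, patterning, epithelium, stroma, muscle, matrix, vessels, blood and immune cells, ordered by estimate; dotted lines mark 2-fold. The interval of H19, from -1.76 to -0.17, excludes 0 without adjustment; that of Esr1, from -0.31 to 0.49, lies well inside 2-fold.

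Genes of mitosis had lower estimates at 8 weeks in every member, but none was called. Of 30 genes listed 29 were measured, the estimates ran from -0.99 to -0.22 with a median of -0.60, against 0.034 over all genes, and 7 had an unadjusted p under 0.05, against 0.414% of all genes in that direction. The members share the same 14 libraries, so the count is not one of independent events. Within 2-fold were 6 of 29 (20.7%), beside 95.1% of all genes. The mean log2 level of the list ran from 4.66 to 7.47 (median 6.44) at 5 weeks and 4.40 to 7.14 (median 5.68) at 8 weeks, so the ages overlapped. Ccnb2, a B-type cyclin that drives entry into mitosis (chromosome 9, 70407692 to 70421547, minus strand), had 28.9 to 186 CPM (median 95.9) at 5 weeks and 23.1 to 93.3 CPM (median 52.3) at 8 weeks. Its estimate was -0.82 ± 0.31, -0.99 in the earlier and -0.76 in the later set, with an unadjusted p of 0.0181 in the limma fit. Hmmr, a spindle-associated protein, had the lowest estimate of the list, -0.99 ± 0.39 (-1.83 to -0.16). Mki67, the proliferation antigen Ki-67, had 63.5 to 404 CPM (median 226) at 5 weeks and 62.6 to 325 CPM (median 126) at 8 weeks and an estimate of -0.46 ± 0.32. Top2a, a topoisomerase that untangles DNA, had an estimate of -0.33 ± 0.33. Between 1 and 23 members had an unadjusted p under 0.05 and a lower estimate when a library was left out: 23 without 5w replicate 5, 11 without 5w replicate 3 or 8w replicate 7, 4 without 5w replicate 6 or 8w replicate 3, 2 without 5w replicate 4, and 1 without 5w replicate 2, 5w replicate 7, 8w replicate 2 or 8w replicate 6. Of all 12791 genes, 53 were lower at that p with every library kept. That number was 116 without 5w replicate 5, 126 without 5w replicate 3 and 76 without 8w replicate 7. All 29 estimates were below 0 in each of the 14 leave-one-out fits, and 26 of 29 in the earlier set alone. The list median stayed between -0.79 and -0.43 in the leave-one-out fits, and between -0.65 and -0.59 under the 3 other scalings.

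Genes of DNA replication had estimates on both sides of 0. All 30 were measured, the median change was 0.11, and 0 had an unadjusted p under 0.05. Within 2-fold were 29 (96.7%), beside 95.1% of all genes. Rrm2, a subunit of ribonucleotide reductase, had 32.5 to 129 CPM (median 75.6) at 5 weeks and 15.7 to 203 CPM (median 69.2) at 8 weeks, and Cdc6, a loader of the replicative helicase, 6.28 to 34.1 CPM (median 17.6) at 5 weeks and 6.69 to 72.2 CPM (median 25.7) at 8 weeks. Their estimates were 0.12 ± 0.45 and 0.57 ± 0.39. In the earlier set alone, with 2 libraries per age, 25 of 30 had an unadjusted p under 0.05 and were higher at 8 weeks, beside 7.49% of all genes, and the median was 1.10, against -0.23 in the later set. None was called in either set or for the interaction of age and set.

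Of 27 growth and imprinted genes expressed in juvenile tissue, 19 were measured. Within 2-fold were 17 of the 19 (89.5%), beside 95.1% of all genes, and within 1.5-fold 3 of the 19, beside 61.7% of all genes. H19, an imprinted non-coding RNA that is high in fetal tissue and shut down after birth (chromosome 7, 142575529 to 142578143, minus strand), had 6.20 to 28.2 CPM (median 8.85) at 5 weeks and 1.29 to 20.9 CPM (median 4.81) at 8 weeks. Its estimate was -0.96 ± 0.37, with -1.77 in the earlier and -0.64 in the later set and an unadjusted p of 0.0204 in limma, while 8w replicate 6 (20.9 CPM) lay above 6 of 7 libraries of 5 weeks. Igf2, the imprinted growth factor beside it, had an estimate of -0.43 ± 0.27, and 62.8% of its exon sequence overlaps another gene model of the same strand. Nnat, a membrane protein from another imprinted locus, had 3.53 to 67.0 CPM (median 14.1) at 5 weeks and 2.13 to 33.5 CPM (median 4.01) at 8 weeks and an estimate of -0.94 ± 0.46. Igf1, which the estrogen-stimulated stroma secretes, had 192 to 428 CPM (median 289.9) at 5 weeks and 169 to 564 CPM (median 367) at 8 weeks and an estimate of 0.17 ± 0.29, with changes above 1.71-fold excluded. Of 15 measured members of the IGF pathway 11 (73.3%) were within 2-fold and 0 had an unadjusted p under 0.05.

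No epithelial or patterning gene was called. Of 23 general epithelial genes 0 had an unadjusted p under 0.05 and 18 (78.3%) were within 2-fold, beside 95.1% of all genes. Krt8, a keratin of simple epithelium, had 450.2 to 1016 CPM (median 683) at 5 weeks and 333 to 1062 CPM (median 596) at 8 weeks and an estimate of -0.26 ± 0.22. Cdh1, the epithelial cadherin, had an estimate of -0.05 ± 0.25, and changes above 1.501-fold were excluded. Of 15 genes of the glands, 7 were measured and 4 (57.1%) were within 2-fold. Foxa2, a transcription factor required for glands to form, was low, at 1.12 to 4.61 CPM (median 1.62) at 5 weeks and 1.24 to 4.59 CPM (median 2.25) at 8 weeks, and an estimate of 0.17 ± 0.25. Pigr, which carries antibody across the epithelium, had an estimate of 0.75 ± 0.35, or of 0.44 without 8w replicate 4, which had 483 CPM. Calb1, a calcium-binding protein of the gland list, had 4.19 to 256 CPM (median 32.5) at 5 weeks and 27.8 to 274 CPM (median 79.6) at 8 weeks and an estimate of 1.25 ± 0.69, with 3.47 in the earlier and 0.36 in the later set. In bulk tissue a change in the number of cells and in the RNA per cell cannot be told apart.

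Of 16 Hox genes measured, which give the reproductive tract its identity along its length, 0 had an unadjusted p under 0.05. Within 2-fold were 15 (93.75%), beside 95.1% of all genes. Hoxa10, needed for the uterus to receive an embryo, had 49.9 to 491 CPM (median 228) at 5 weeks and 46.7 to 567 CPM (median 317) at 8 weeks and an estimate of 0.26 ± 0.23. Hoxa11, of the same cluster, had an estimate of 0.11 ± 0.20, but 35.0% of its exon sequence overlaps an antisense gene. Of 29 genes of Wnt signalling 22 (75.9%) were within 2-fold. At an unadjusted p under 0.05, 1 was higher and 1 lower, beside 0.938% and 0.414% of all genes. Wnt7b, a ligand of the epithelium, had an estimate of 0.95 ± 0.37 (unadjusted p = 0.0206, limma), with 2.10 in the earlier and 0.49 in the later set. Wnt7a, another epithelial ligand that patterns the uterus, had 6.28 to 98.7 CPM (median 23.8) at 5 weeks and 4.56 to 160.3 CPM (median 47.7) at 8 weeks and an interval of -0.74 to 1.84. Rdh10, which makes the precursor of retinoic acid, had 32.2 to 88.7 CPM (median 52.96) at 5 weeks and 49.0 to 157 CPM (median 61.1) at 8 weeks and an estimate of 0.46 ± 0.16. Of 14 retinoid genes measured it was the only one with an unadjusted p under 0.05.

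The data said least about a group of genes that varied widely at both ages. Among the 10 widest intervals were those of Arg1, Clca1, Prap1, Lrat, Padi1, Klk1, Car12, Chil1 and Fabp4, which reached 4.48-fold for Padi1 to 15.99-fold for Fabp4. Arg1, an arginase, had 2.62 to 647 CPM (median 131) at 5 weeks and 2.90 to 1132 CPM (median 21.8) at 8 weeks. High and low values were found at both ages: 1132 CPM in 8w replicate 4 and 647 CPM in 5w replicate 2, but 2.62 CPM in 5w replicate 3 and 2.90 CPM in 8w replicate 6. Clca1, a secreted protein of mucous cells, had 36.2 to 3807 CPM (median 1433) at 5 weeks and 22.8 to 3524 CPM (median 276) at 8 weeks, and Padi1, which converts arginine to citrulline in proteins, 4.55 to 2481 CPM (median 369) at 5 weeks and 10.6 to 3574 CPM (median 370.4) at 8 weeks. Of the exon sequence of Padi1 32.0% and of Prap1 27.3% overlaps a gene on the other strand. Prap1, a secreted protein rich in proline, had an estimate of 0.11 ± 1.06, with -2.59 in the earlier and 1.196 in the later set. Lrat, which stores retinol as ester, had 0.995 to 192 CPM (median 68.3) at 5 weeks and 1.24 to 208 CPM (median 31.5) at 8 weeks. Klk1, a kallikrein protease, was at 545 CPM in 5w replicate 5 and 119 CPM in 8w replicate 7 and at 10.1 CPM or less in the other 12 libraries. Car12, a carbonic anhydrase, was at 12.5 and 11.9 CPM in 5w replicate 3 and 8w replicate 6 and at 329 CPM or more in the rest. Sprr1a, a cornified envelope protein, had an estimate of -1.78 ± 0.76 (-3.40 to -0.16), and Sprr2g, annotated as a polymorphic pseudogene of a related family, of -1.04 ± 0.55.

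Stroma and muscle lists also held no called gene. Of 20 stromal genes 19 (95%) were within 2-fold, beside 95.1% of all genes, and 0 had an unadjusted p under 0.05. Vim, the intermediate filament of mesenchymal cells, had 542 to 1752 CPM (median 990.3) at 5 weeks and 353 to 1705 CPM (median 1238) at 8 weeks, and changes above 1.36-fold were excluded. Of 24 contractile genes of the myometrium 19 (79.2%) were within 2-fold. The median change of the 24 was -0.92 in the earlier and 0.57 in the later set. Acta2, smooth muscle actin, had 722 to 6138 CPM (median 4487) at 5 weeks and 428 to 6864 CPM (median 6019) at 8 weeks, with estimates of -1.26 and 0.66 in those sets. Myh11, smooth muscle myosin, had an estimate of -1.32 and 0.76 there, and of 0.16 ± 0.49 over all 14 libraries. Des, the muscle intermediate filament, had an estimate of 0.37 ± 0.29.

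No matrix gene was called. Of 12 fibrillar and associated collagens 11 (91.7%) were within 2-fold, of 16 elastic fibre genes 14 (87.5%) and of 22 collagen modifying enzymes 20 (90.9%). Of all genes 95.1% were, and 0 genes of these lists had an unadjusted p under 0.05. Col1a1, a chain of type I collagen, had 310.0 to 7209 CPM (median 573) at 5 weeks and 342 to 3544 CPM (median 714) at 8 weeks, with its highest values in the earlier set of both ages, and an estimate of -0.20 ± 0.36. Col3a1, the chain of type III collagen, had an estimate of -0.18 ± 0.23, and changes above 1.600-fold were excluded. Eln, elastin, had 41.7 to 557 CPM (median 204) at 5 weeks and 36.9 to 146 CPM (median 106) at 8 weeks and an estimate of -0.69 ± 0.42. Lox, which cross-links collagen and elastin, had an estimate of -0.35 ± 0.26.

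Immune genes held some of the smallest p-values. Of 8 measured genes of MHC class II presentation, which show peptides to helper T cells, all had higher estimates, the median was 0.69, and 5 had an unadjusted p under 0.05, against 0.938% of all genes in that direction; none was called. H2-Eb1, a class II beta chain (chromosome 17, 34305867 to 34316674, plus strand), had 30.9 to 334 CPM (median 117) at 5 weeks and 47.8 to 618 CPM (median 168) at 8 weeks and an estimate of 0.82 ± 0.33. H2-Aa, a class II alpha chain, had an estimate of 0.86 ± 0.35, and Cd74, the chain that guides class II molecules through the cell, had 78.9 to 343 CPM (median 132) at 5 weeks and 119 to 588 CPM (median 299.6) at 8 weeks and an estimate of 0.75 ± 0.36. The highest levels of all 3 were in 8w replicate 6, and without it 0 of 8 had an unadjusted p under 0.05. The count was also 0 without 8w replicate 1, 1 without 5w replicate 1, 2 without 5w replicate 6, 5w replicate 7 or 8w replicate 5, and 3 without 5w replicate 4, and it did not exceed 7 in any leave-one-out fit. The list median stayed between 0.52 and 0.84.

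Macrophage and dendritic cell genes, of cells that also carry class II, had a median change of 0.24, with 21 of 22 measured, 1 higher at an unadjusted p under 0.05, and sums of 771 to 2134 CPM at 5 weeks and 772 to 4207 CPM at 8 weeks. Flt3, the receptor that dendritic cells need to develop, is not a member of that list. It had 0.543 to 2.25 CPM (median 1.46) at 5 weeks and 1.61 to 4.30 CPM (median 2.38) at 8 weeks. Its 8-week libraries lay above the 5-week ones within each set, with estimates of 0.52 in the earlier and 0.66 in the later set. The margin in the later set was small, 2.25 CPM in 5w replicate 3 against 2.28 CPM in 8w replicate 3. The B and plasma cell genes summed to 461 to 917 CPM at 5 weeks and 611 to 993 CPM at 8 weeks, with 9 of 22 measured. Igkc, an antibody light chain, had 6.13 to 179 CPM (median 32.5) at 5 weeks and 6.12 to 279 CPM (median 27.6) at 8 weeks and an interval of -1.25 to 1.24. The part of these cells in the class II values was not tested.

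Of 17 class I genes 4 were higher at an unadjusted p under 0.05, against 0.938% of all genes. Within 2-fold were 14 (82.4%), beside 95.1% of all genes. H2-Q6 (chromosome 17, 35424850 to 35430055, plus strand) had 6.21 to 51.0 CPM (median 34.6) at 5 weeks and 15.7 to 137 CPM (median 58.2) at 8 weeks, and H2-Q7, its neighbour (chromosome 17, 35439155 to 35443773, plus strand), 9.01 to 67.3 CPM (median 56.3) at 5 weeks and 20.1 to 173 CPM (median 74.6) at 8 weeks. Their estimates were 1.13 ± 0.29 and 1.08 ± 0.29, and H2-Q5 beside them 0.94 ± 0.25. These are class I genes of closely similar sequence, reads may be split between them, and their values are not independent. In 8w replicate 6 H2-Q6 and H2-Q7 were highest, at 137 and 173 CPM, and without it the estimates were 0.99 and 0.97. All 8-week values of H2-Q6 lay above all 5-week values within the earlier set, and in the later set the ranges overlapped.

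Interferon-stimulated genes, which cells switch on against virus, had lower estimates in 28 of 29, with a median of -0.37, yet 0 had an unadjusted p under 0.05. Ifit3, an interferon-induced antiviral protein, had 18.1 to 228 CPM (median 43.6) at 5 weeks and 7.54 to 347 CPM (median 24.2) at 8 weeks, and 8w replicate 4 held the highest value of the 14. Without that library the list median was -0.63, and 0 genes of the 12791 were called. In that fit 19 of 29 had an unadjusted p under 0.05 and a lower estimate, beside 184 of all 12791 genes. In the other leave-one-out fits the count of such members was 0 to 5. It was 5 without 5w replicate 3, 3 without 8w replicate 7, and 1 without 5w replicate 4 or 5w replicate 5. In the earlier set alone 23 of 29 were lower at that p, beside 4.78% of all genes, with a median of -0.92, against -0.14 in the later set. Gbp7, a guanylate-binding protein, had an estimate of -0.50 ± 0.24, and 11.3% of its exon sequence overlaps another gene model. Gzmb, the cytotoxic granule protease granzyme B, had 2.02 to 225 CPM (median 52.9) at 5 weeks and 2.09 to 126 CPM (median 47.7) at 8 weeks and an estimate of -0.20 ± 0.84.

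Blood, fat and oviduct genes varied with the library. Of 10 red blood cell genes 6 were measured, with Alas2 not among them, and the 6 summed to 321 to 1471 CPM at 5 weeks and 183 to 2295 CPM at 8 weeks, of which Hbb-bs gave at most 78.6 CPM in any library. Car2, a list member that other tissues also express, is in that sum. The median change was -0.68 and 3 were lower at an unadjusted p under 0.05, against 0.414% of all genes. All 3 were globins, close copies among which reads may be split. The count was 1 without 5w replicate 2, 5w replicate 3, 8w replicate 2 or 8w replicate 7, and also without both columns in files of another age. Hbb-bt, an adult beta globin, had 1.74 to 7.45 CPM (median 4.01) at 5 weeks and 0.984 to 2.63 CPM (median 2.18) at 8 weeks and an estimate of -0.76 ± 0.24, and Hbb-bs, its neighbour, of -0.81 ± 0.33. Hba-a1, an alpha globin with an estimate of -0.65 ± 0.39, was not among those 3. Blood left in the tissue was not measured apart from these genes, and its part was not tested. Pecam1, a marker of vessel walls, had an estimate of 0.03 ± 0.31.

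Fabp4, the fatty acid carrier of fat cells and capillaries (chromosome 3, 10204088 to 10208576, minus strand), had 5.47 to 620.3 CPM (median 178) at 5 weeks and 2.400 to 716 CPM (median 11.6) at 8 weeks. Its estimate of -2.06 ± 0.91 was the lowest estimate of all genes, with an interval of -4.00 to -0.13, and 8w replicate 6 (716 CPM) exceeded every 5-week library. Lpl, lipoprotein lipase, had an estimate of -1.02 ± 0.52. Of 14 fat cell genes 7 were measured, Adipoq and Plin1 not among them, and they summed to 385 to 1545 CPM at 5 weeks and 193 to 1491 CPM at 8 weeks; fat attached to the tissue was not tested. Ovgp1, secreted by the oviduct (chromosome 3, 105973711 to 105987423, plus strand), had 1.32 to 88.5 CPM (median 18.8) at 5 weeks and 7.49 to 620.3 CPM (median 62.2) at 8 weeks and an estimate of 1.73 ± 0.76, 2.79 in the earlier and 1.31 in the later set, and 28.7% of its exon sequence overlaps another gene model on the same strand. The 5 of 14 oviduct and ciliated cell genes measured summed to 126 to 520.2 CPM at 5 weeks and 143 to 862 CPM at 8 weeks, with Foxj1 not among them, and Ovgp1 was the only one with an unadjusted p under 0.05. Star, which brings cholesterol to steroid synthesis and was 1 of the 2 ovarian genes listed, had 2.10 to 5.49 CPM (median 3.61) at 5 weeks and 2.83 to 10.2 CPM (median 5.74) at 8 weeks and an estimate of 0.49 ± 0.25. Ccl21a, a chemokine of lymphatic vessels, had an estimate of 1.46 ± 0.47. In the earlier set it had 0.692 and 2.64 CPM at 5 weeks and 36.5 and 13.7 CPM at 8 weeks, and in the later set the estimate was 0.75.

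Genes of oxidative phosphorylation and ribosomal proteins had the narrowest median intervals of the 62 lists. All 53 measured genes of nuclear-encoded oxidative phosphorylation were within 2-fold and 52 within 1.5-fold, beside 95.1% and 61.7% of all genes. Of 51 cytosolic ribosomal proteins 51 and 49 were so, of 28 genes of glycolysis and the tricarboxylic acid cycle 28 and 16, and of 30 lysosomal genes 28 and 20. Among 22 genes of folding and stress in the endoplasmic reticulum, which handle secreted proteins, 22 were within 2-fold, 4 were higher at an unadjusted p under 0.05 (2 under TMM or median scaling), against 0.938% of all genes, and the median was 0.17. That count was 2 without 5w replicate 2, 8w replicate 2, 8w replicate 3 or 8w replicate 4, and 1 without both columns in files of another age. Herpud1, which helps remove misfolded proteins, had 55.5 to 130.4 CPM (median 101) at 5 weeks and 70.3 to 167 CPM (median 129.7) at 8 weeks and an estimate of 0.43 ± 0.14. Creld2, a secreted chaperone, had 57.7 to 86.0 CPM (median 78.3) at 5 weeks and 79.1 to 154 CPM (median 94.1) at 8 weeks and an estimate of 0.45 ± 0.16. Over the 3 other scalings the list median was 0.12 to 0.15.

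**Figure D4:**
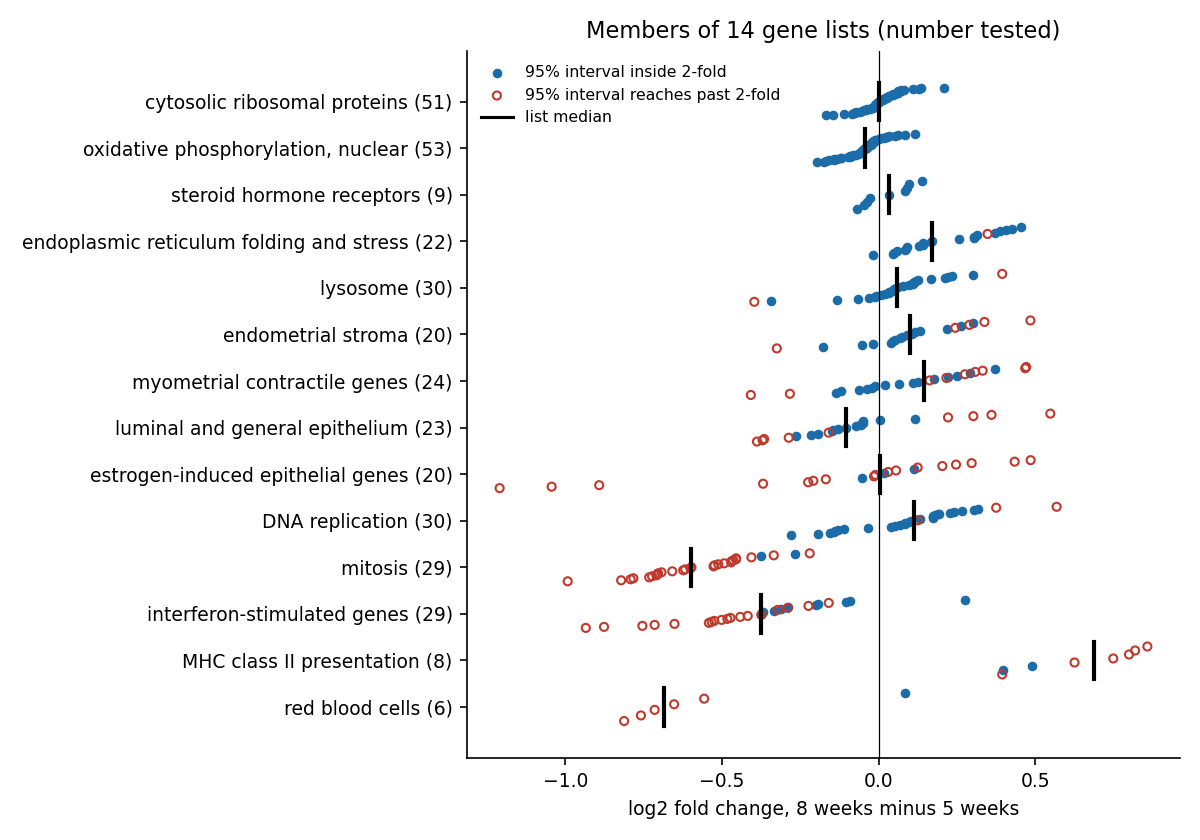
Log2 fold change (8 weeks minus 5 weeks) of each measured member of 14 gene lists, with the number measured in brackets; filled points have a 95% interval inside 2-fold, open points one that reaches past it, and the black line is the list median. Ribosomal and oxidative phosphorylation genes lie near 0, while all 29 mitosis genes lie below 0 and all 8 class II genes above it; no gene was called.

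The genes with the smallest p-values missed the adjusted threshold, and most had estimates below 2-fold. Among them H2-Q6 and H2-Q7, at 1.13 and 1.08, were above 2-fold. Lrrc4c, an adhesion protein of synapses (ENSMUSG00000050587; chromosome 2, 96318169 to 97631666, plus strand), had the smallest p-value of all genes, 0.000918 unadjusted and 0.999846 adjusted in the limma fit. Lrrc4c was low, at levels where the log2(CPM + 1) scale understates changes. It had 1.18 to 2.62 CPM (median 1.66) at 5 weeks and 1.29 to 4.68 CPM (median 4.40) at 8 weeks. Its levels were separated in the later set, where the estimate was 0.81, and overlapped in the earlier set (0.25). Dalrd3, which helps a methyltransferase modify transfer RNA (chromosome 9, 108569886 to 108572774, plus strand), had 44.1 to 59.2 CPM (median 53.2) at 5 weeks and 61.0 to 75.0 CPM (median 65.7) at 8 weeks. The ages did not overlap, but the estimate was only 0.39 ± 0.11, and 15.6% of its exon sequence overlaps Wdr6 on the other strand. Phkg2, a subunit of phosphorylase kinase named after its values were seen, was the only gene besides Dalrd3 and Flt3 (0.0235% of genes) with the ages separated the same way in both sets, and an estimate of 0.44 ± 0.14. In the later set it was separated by a very small margin, 18.583 CPM in 5w replicate 4 against 18.592 CPM in 8w replicate 4.

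The 10 genes of smallest p with higher estimates also held Ccdc88b at 0.87 ± 0.23, a protein of blood-derived cells, Trim46 at 0.65 ± 0.18, which organises microtubules in axons, and Cyth4 at 0.55 ± 0.17, an exchange factor for small GTPases. In the earlier set Ccdc88b had 13.1 and 14.4 CPM at 5 weeks and 39.9 and 61.2 CPM at 8 weeks. In the later set the ages overlapped, at 6.41 to 9.77 CPM at 5 weeks and 7.28 to 15.2 CPM at 8 weeks. Among the lower genes, Sh3rf2, a scaffold with SH3 domains, had 1.47 to 37.2 CPM (median 2.91) at 5 weeks and 0.669 to 13.1 CPM (median 1.499) at 8 weeks, and the level of the earlier set was far above that of the later set in both ages. Its estimate was -0.75 ± 0.19 (unadjusted p = 0.00137, limma). Frat2, an inhibitor of the kinase GSK3, had an estimate of -0.90 ± 0.27, and Psrc1, a microtubule protein of the dividing cell, of -0.80 ± 0.25. Ckap2, another spindle protein, had an estimate of -0.93 ± 0.34, and Lockd, a non-coding RNA beside a Cdk inhibitor gene, of -0.83 ± 0.28. Ptprr, a tyrosine phosphatase, had an estimate of -0.79 ± 0.28, and of -0.99 without 8w replicate 4, and 11.0% of its exon sequence overlaps an antisense gene. Slc35d2, a nucleotide sugar transporter, Prkar2b, a regulatory subunit of protein kinase A, and the non-coding 4921531C22Rik had estimates of -0.45, -0.66 and -0.47.

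**Figure D5:**
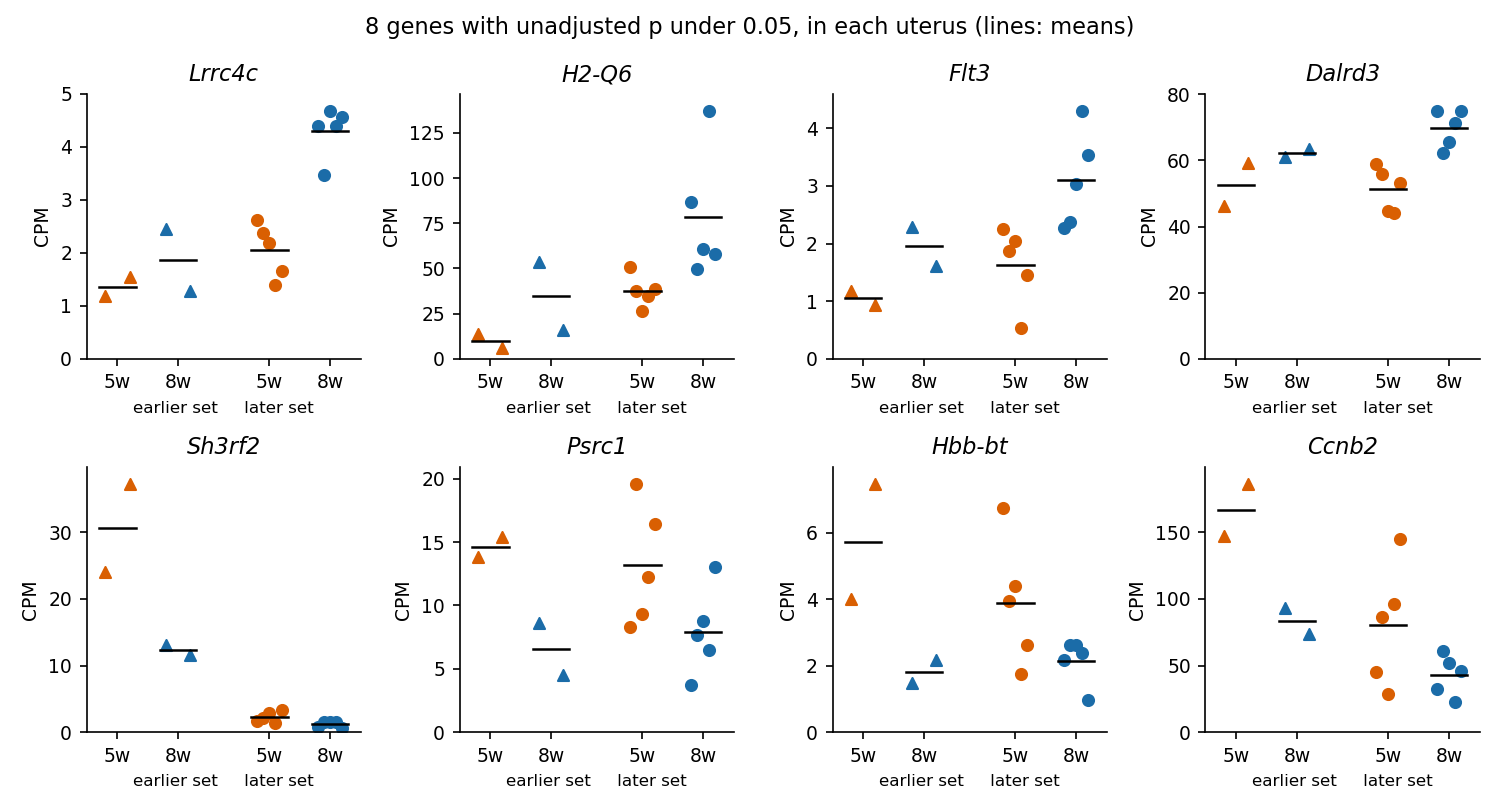
CPM of 8 genes in each of the 14 uteri, by set and age, with a line at each mean; axes start at 0. Orange, 5 weeks; blue, 8 weeks; triangles, earlier set; circles, later set. Dalrd3 is the gene whose ages do not overlap over all 14 uteri; Sh3rf2 differs far more between sets than between ages.

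Each set on its own also gave no called gene. In the later set, 5 against 5, 87 genes (0.68%) had an unadjusted p under 0.05 and the lowest adjusted p was 0.999853. In the earlier set, 2 against 2, there were 1569 genes (12.3%), 958 higher and 611 lower, with a lowest adjusted p of 0.266. By the equivalence test 88.9% of genes were within 2-fold in the later and 77.3% in the earlier set. The interaction of age and set called 0 genes, with 281 (2.2%) at an unadjusted p under 0.05, so no difference in the age effect between sets was shown for any gene, though the median half-width of the interaction was 0.97. The count of 281 was 99 without 5w replicate 1, 140 without 8w replicate 1 and 459 without 5w replicate 5, with 0 called in each.

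The smallest interaction p-values were those of Dusp8, a phosphatase of MAP kinases, and Rpph1, the RNA of ribonuclease P. Dusp8 was at 20.97 and 18.6 CPM in the earlier 5-week uteri, at 4.26 and 6.28 in the earlier 8-week uteri, and between 3.06 and 8.95 in the later set, an interaction of 2.25 ± 0.40 (later minus earlier set) with an adjusted p of 0.38 in limma. Rpph1 had the opposite sign, with 4.84 and 10.7 CPM at 5 weeks and 56.3 and 39.6 CPM at 8 weeks in the earlier set, an interaction of -2.73 ± 0.48. It is a short RNA, and 73.0% of its length overlaps another gene of the same strand.

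In the later set no gene was called for a difference in spread between ages, and most genes had the larger spread at 5 weeks. The median standard deviation of log2 values was 0.44 at 5 and 0.35 at 8 weeks, and 68.6% of genes had the larger value at 5 weeks. Without 5w replicate 5 these were 0.38 and 58.9%. Of 397 genes (3.1%) with an unadjusted p under 0.05 for spread, 332 were wider at 5 and 65 at 8 weeks. The count of 397 was 914 without 8w replicate 4, 888 without 5w replicate 7, 831 without 5w replicate 4 and 824 without 5w replicate 3, with 0 called in each. Cd68, a macrophage protein, had a standard deviation of 0.35 at 5 and 1.09 at 8 weeks.

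Calls were made against aged uteri. In a fit of all 20 libraries with values, 2196 genes (17.2%) were called between 6 aged and 7 8-week uteri and 2825 (22.1%) between aged and 5-week uteri, while 0 were called between 8 and 5 weeks and 139 had an unadjusted p under 0.05. Both comparisons share the aged libraries and were made in limma. An estimate of 2-fold or more was reached by 986 genes between aged and 8-week and by 12 between 8-week and 5-week uteri.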

How the data were processed

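RNA from 14 mouse uteri was sequenced. The authors deposited, per the file headers, 1 table per sample in CPM over 12791 genes; GRCm38, STAR, featureCounts, fastp and edgeR stand in the submitters' processing notes, without versions or roles. Per the labels' protocols, RNA was purified with either of 2 kits and read as single reads of 60 bp or pairs of 150 bp on a HiSeq1500 or NovaSeq 6000, with no assignment to libraries. Of 20 tables with values, 15 name in their header another sample than the table was attached to; each column was taken as its header names it. All values were whole multiples of the worth of 1 read (tolerance 1e-05 of a read), from which the total reads were inferred. The set, taken from the ending of the header name, was a covariate.

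limma 3.58.1 in R 4.3.3 (trend) was run on log2(CPM + 1), with Benjamini-Hochberg adjustment over all genes at 0.05, and was checked on simulated data. The simulated noise was independent between genes and, for the age fit, no wider than that of the median gene. The check of that fit therefore did not cover genes that vary widely or vary together. Equivalence used a pair of 1-sided tests against 1.5-, 2- and 4-fold, and spread used absolute deviations from the age mean. Coordinates and shared exon length are from GENCODE release M21, which held 12767 of the gene identifiers. The 62 gene lists (1045 of 1310 genes measured) and the genes named were chosen with earlier results of these data known. Genes named came from the 10 of smallest p and the 5 of largest change in each direction, the 10 of widest interval, the 5 of highest CPM, 30 key genes, in each list the 2 of smallest p and the widest interval, and the 5 of smallest p in each direction for the interaction and for the spread. Ihh, a key gene, was not among the genes listed, and some genes of these rules are not reported here. Alternatives were other pseudocounts, scalings, filters, covariates and subsets of libraries.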

Additional observations from a re-analysis of the deposited data

Results flagged for a closer look

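Among 182 groups of 7 libraries (91 named genes at 2 ages), 8 (4.396%) held a library whose gap to its nearest neighbour took more than 0.568 of the group's range of log2 values. For 7 values drawn from 1 normal distribution, chance flags about 1 in 20 groups. Each group here pools both sets, and some genes were named for their wide intervals, so that rate need not hold. None of these flags was tested further. At 8 weeks, 8w replicate 4 had the highest Ptprr, 38.3 CPM against 16.5 for the next (share of the range 0.755), the highest Pigr, 483 against 159.7 CPM (0.601), and the lowest Pgr, 25.4 against 108 CPM (0.763). Library 5w replicate 3 had the lowest Car12, 12.5 against 465 CPM (0.742), and the lowest Sprr2b, 6.07 against 65.8 CPM (0.700). Car12 was also lowest in 8w replicate 6, 11.9 against 329 CPM (0.7505). Klk1 was highest in 5w replicate 5, 545 against 9.27 CPM (0.792), and in 8w replicate 7, 119 against 10.1 CPM (0.677).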

How the results depend on the processing

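No gene was called between 8 and 5 weeks under any of the 32 alternatives that were run. The lowest adjusted p over them was 0.266, in the earlier set alone, and it was 0.270 with array weights, where 1227 genes had an unadjusted p under 0.05. Against 173 such genes over all libraries, the count was 563 without 8w replicate 4, 402 without 5w replicate 3, 346 without 5w replicate 5, 115 without 5w replicate 7 and 112 without 5w replicate 2, which were the leave-one-out fits that moved it by over 1.5 times; it was 65 with no set term, 279 without both columns in files of another age, and 583 without the 3 libraries of lowest array weight, an alternative chosen after seeing the data. The count of genes within 2-fold, 12168, ran from 11876 to 12185 (92.8% to 95.3%) when each library was left out in turn, was 12097 with columns attached by file, and was lowest in the earlier set alone, 9892. The count within 1.5-fold depended more on the setting: it was 0 in the later set alone and in the earlier set alone, 2581 (20.2%) with no set term and 10229 (80.0%) with a pseudocount of 4. TMM, quantile and median scaling gave medians over all genes of -0.02, 0.01 and -0.0028. Those scalings split the genes of unadjusted p under 0.05 as 104 higher and 101 lower, 103 and 88, and 112 and 83, against 120 and 53. Over 2906 combinations of a named gene and an alternative, 0 passed the threshold and 157 changed sign, in 36 of 91 genes. Interaction and spread gave 0 calls under each alternative run, with lowest adjusted p-values of 0.0757 (pseudocount 4) and 0.616 (without 5w replicate 4).

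Replicate numbers recur across ages, but samples of the same number did not deviate together in every pair: correlations of deviations ran from -0.505 to 0.249. Only 2 of 7 5-week libraries correlated best with the 8-week library of their number, and these were replicates 1 and 2. The earlier set has 2 libraries per age, so their deviations mirror each other. Replicates 1 and 2 thus share a single correlation, 0.104, and match or fail together. The fit with a replicate block gave 0 calls, 143 genes at an unadjusted p under 0.05 and 12217 within 2-fold. The planned edgeR, DESeq2 and sva alternatives were not run: the deposited values are CPM, and the reads inferred from them did not pass a check of recovered reads, which takes the smallest value of a library as 1 read where here the smallest is at least 10. The median half-width of the interval was 0.46 for genes of 2 to 5 CPM and 0.38 for genes of 100 CPM or more, and genes with fewer than 10 reads in some library were not analysed here.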
